A study of Mus musculus with 3 samples.

Results

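The nuclear factor I (NFI) family consists of 4 genes in the mouse, Nfia, Nfib, Nfic and Nfix, out of 21887 protein-coding genes of the annotation. Open chromatin at these genes was taken from ATAC-seq, in which a transposase cuts and tags accessible DNA. Every called peak that touched the mm10 body of a member or the 50000 bp on either side of it was counted to that member, which gave 78 of 46113 peaks in Seh1cKO cells at day 1, 162 of 118441 in control cells at day 1 and 150 of 108788 in control progenitors. Peaks of the 3 libraries that overlapped by at least 1 bp were merged into sites, and 222 of 182865 sites belonged to the family.

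The cells were oligodendrocyte progenitors, the precursors of the myelin-forming cells of the brain, taken from the cortices of C57BL/6 pups at postnatal day 4 to 7 by panning on anti-GalC and then anti-O4 plates. The 3 groups were Seh1cKO cells after 1 day of triiodothyronine (T3, 60 nM) with PDGF-AA, bFGF and NT3 withdrawn, wild-type control cells after the same day of T3, and wild-type control cells at the progenitor stage, as the letters DO in the title of that sample were read. Seh1 is a subunit of the nuclear pore complex, and the design sets its conditional loss against control cells during early differentiation. The driver of the Cre recombinase and the deleted part of the gene are not given in the sources used here. Each group had 1 library made from 50000 cells, so no difference below has a replicate check, no test between conditions was possible, and all intervals are 95% intervals for counting error only. Progenitors with the Seh1cKO genotype were not analysed here, and the control day 1 library stands on one side of both contrasts.

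NFI proteins are transcription factors that bind DNA as dimers at the palindrome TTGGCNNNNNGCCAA, or more weakly at its half-site TTGGC. Nfia and Nfib act in the switch of neural progenitors from making neurons to making glia, and Nfia is known to hold back the differentiation of oligodendrocyte precursors. Nfix acts in neural stem cells and skeletal muscle, and Nfic is best known for its role in the growth of tooth roots.

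The promoters of 3 members are shown because they are those listed for the family at start sites in the RefSeq promoter table. All 3 printed windows lie inside the annotated gene bodies and not at their ends, which are described further on. The sequences are from RefSeq on GRCm38.p6, 5′ to 3′ on the strand of the gene, from 250 bases before the start site to 50 after it, and capitals mark the bases inside a control day 1 peak. The Nfia promoter lies at chr4:97581693-97581992 on the plus strand, the Nfic promoter at chr10:81427124-81427423 on the minus strand, and the first of 4 listed Nfix promoters at chr8:84780033-84780332 on the minus strand. Of the 4 members 3 matched the table, all but Nfib.
Nfia: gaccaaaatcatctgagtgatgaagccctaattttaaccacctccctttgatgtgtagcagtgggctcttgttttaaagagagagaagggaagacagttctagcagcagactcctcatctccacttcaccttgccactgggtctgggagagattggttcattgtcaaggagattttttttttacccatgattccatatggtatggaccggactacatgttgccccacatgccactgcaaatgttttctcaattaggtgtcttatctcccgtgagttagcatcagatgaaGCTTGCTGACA
Nfic: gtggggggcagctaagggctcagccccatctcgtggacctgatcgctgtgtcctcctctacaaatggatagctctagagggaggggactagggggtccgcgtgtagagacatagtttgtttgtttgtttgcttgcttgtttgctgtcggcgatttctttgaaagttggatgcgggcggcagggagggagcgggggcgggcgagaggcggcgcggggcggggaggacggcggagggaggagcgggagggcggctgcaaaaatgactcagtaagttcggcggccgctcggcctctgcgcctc
Nfix: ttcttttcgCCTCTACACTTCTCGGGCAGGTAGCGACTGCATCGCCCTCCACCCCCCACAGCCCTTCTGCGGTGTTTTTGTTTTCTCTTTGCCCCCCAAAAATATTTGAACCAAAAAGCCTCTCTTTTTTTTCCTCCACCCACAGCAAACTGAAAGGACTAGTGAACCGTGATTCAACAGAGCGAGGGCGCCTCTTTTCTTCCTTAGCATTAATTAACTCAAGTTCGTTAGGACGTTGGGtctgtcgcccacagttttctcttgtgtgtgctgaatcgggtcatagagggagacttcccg

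These windows held either no peak or a weak one in all 3 libraries. The Nfia window was touched in the control day 1 library alone, by a peak of 18 fragments at chr4:97581982-97582226 that covered the last 11 bases shown, and the Seh1cKO peak nearest to the start site lay 5625 bp away. The Nfic window held no peak in any library. The first Nfix window held no Seh1cKO peak, a control day 1 peak of 19 fragments that covered 231 bases, and a progenitor peak of 15 fragments at chr8:84779961-84780101. The other 3 listed Nfix promoters were not touched in any library. Over the whole table of 32851 promoters, a peak touched 38.3% in the Seh1cKO library, 42.1% in the control day 1 library and 41.1% in the progenitor library. The Nfic promoter had a GC content of 63.0% and 24 CpG, the Nfia promoter 44.7% and 2 CpG, and the first Nfix promoter 49.3% and 13 CpG, where the medians of the table were 52.7% and 7 CpG. The half-site TTGGC, searched on both strands as TTGGC and GCCAA, is in none of the 3 printed windows and is in each of the other 3 Nfix windows, and 46.7% of the promoters of the table hold it. The full palindrome, which contains the half-site, is in 0.0365% of promoters and in none of these.

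The libraries differed in depth, with 10845533 fragments in the Seh1cKO day 1 library, 18260883 in the control day 1 library and 23403600 in the progenitor library by the file headers. The Seh1cKO library had 59.4% of the fragments and 38.9% of the peaks of the control day 1 library, and the lowest summit pileup it called was 6 fragments, against 8 in the control day 1 library and 9 in the progenitor library. The pileup, the number of fragments over a peak's summit, is also given per 1000000 fragments of its library (CPM), and on that scale these lowest calls were 0.553, 0.438 and 0.385 CPM. A site without a call may therefore be open below that level, and in a bulk library fewer cells with an open site cannot be told apart from less opening in each cell. As a check of the cell type, 7 of 8 oligodendrocyte lineage markers had a peak within 1000 bp of an annotated gene end in each library, all but Cspg4. The same count was 7 of 8 astrocyte markers in each library, so end peaks do not separate these lists. Of 8 neuronal markers 5, 6 and 7 had an end peak in Seh1cKO day 1, control day 1 and progenitors, and of 8 endothelial and mural markers 2, 4 and 3, with Pecam1, Cdh5 and Rgs5 at none. Of 8 microglial markers 2, 2 and 3 had an end peak in the same order, with Cx3cr1, Csf1r, Aif1 and Itgam at none, where the share over all protein-coding genes was 56.2%, 63.2% and 62.4%. The part of other cell types and of depth in the results was not tested.

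The 4 loci differ in size and surroundings. Nfia spans chr4:97578066-98118876, which is 540811 bp, and Nfib spans chr4:82290173-82506751, which is 216579 bp, and the windows of both hold no other protein-coding gene. Nfic spans 35729 bp at chr10:81396191-81431919 and Nfix spans 96527 bp at chr8:84704712-84801238, and each of their windows reaches into 8 other protein-coding genes. Sites at the Nfic and Nfix loci can therefore belong to a neighbour, and some of the strongest lay at ends of other genes. The highest Nfic-window pileup, 80 fragments in Seh1cKO cells, 140 in control cells at day 1 and 114 in progenitors, lay at an end of Fzr1, an activator of the anaphase-promoting complex, and 89, 110 and 130 fragments in the same order lay at an end of Calr, the calcium-binding chaperone calreticulin, in the Nfix window. In the flank of Nfix and at no gene end, the site at chr8:84663957-84664371 had 59 fragments in Seh1cKO cells, 92 in control cells at day 1 and 146 in progenitors, which was the highest pileup of the Nfix window in progenitors.

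All members had fewer peaks in the Seh1cKO library than in either control library. Nfia had 25 peaks in Seh1cKO cells (Poisson interval 16.2 to 36.9), 65 in control cells at day 1 (50.2 to 82.8) and 67 in progenitors (51.9 to 85.1). Nfib had 18, 36 and 31 peaks in the same order, and Nfix 23, 36 and 37. Nfic, the shortest locus, was the member whose count differed most between the control libraries, with 12 peaks in Seh1cKO cells (6.20 to 21.0), 25 in control cells at day 1 (16.2 to 36.9) and 15 in progenitors (8.40 to 24.7). The intervals of the control libraries overlapped for every member, and those of Seh1cKO and control day 1 were apart for Nfia alone. The family ratio of Seh1cKO to control day 1 was 0.481 (exact conditional binomial interval 0.363 to 0.635), where the ratio over all peaks corresponds to 38.9%, and that of control day 1 to progenitors was 1.08 (0.860 to 1.36). Over all peaks the progenitor list was 91.8% as long as the control day 1 list. When the strongest 46113 peaks of each list were compared, which sets the ratio over all peaks to 1 by construction, the first ratio became 1.04 (0.748 to 1.45). With full lists and with equal lists, the ratio over all peaks thus lay inside the family's interval.

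**Figure D1:**
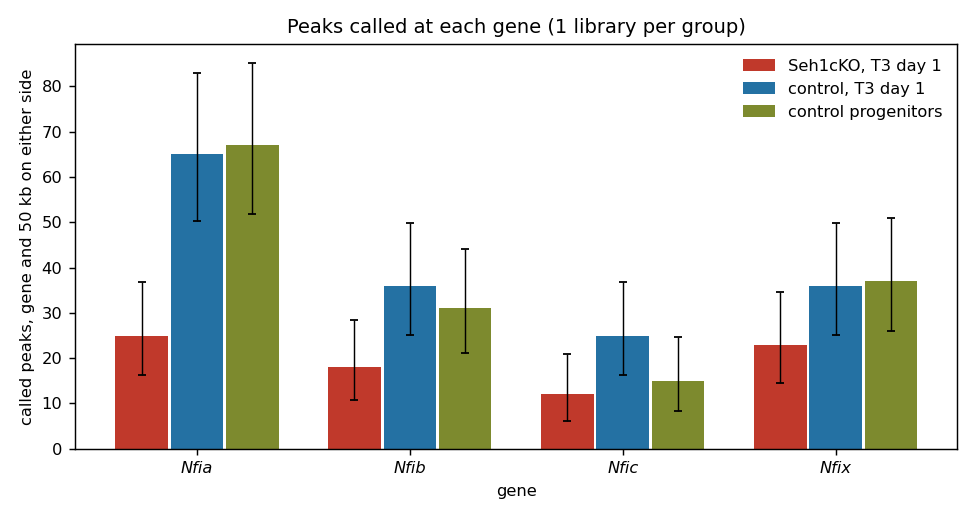
Called peaks at each nuclear factor I gene and 50 kb on either side, with 1 bar per library (Seh1cKO day 1, control day 1, control progenitors) and exact 95% Poisson intervals for counting error. Nfia has 25, 65 and 67 peaks in that order, and Nfic has 12, 25 and 15.

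Per length, the family was dense in open sites. It had 6.05 peaks per 100 kb of window in Seh1cKO cells, 12.6 in control cells at day 1 and 11.6 in progenitors, where the median gene had 2.71, 6.20 and 5.76. Nfix was among the densest genes, and 0.553%, 0.603% and 0.210% of genes were denser in the same order. For Nfic the figures were 2.52%, 0.571% and 10.6%, and for Nfib 14.6%, 12.7% and 16.7%. Nfia, with 3.90, 10.1 and 10.5 peaks per 100 kb, was passed by 31.0%, 18.5% and 13.3% of genes, though in number of peaks 18, 25 and 9 genes exceeded it. The windows of Nfic and Nfix include ends of other genes, which those of Nfia and Nfib do not.

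The median family peak was also taller for its depth than the median peak of its library, but not in fold enrichment over local background. Median summit pileups were 1.52 CPM in Seh1cKO cells, 0.958 in control cells at day 1 and 0.812 in progenitors, against 1.20, 0.712 and 0.598 over all peaks. In Seh1cKO cells the Nfia median, 1.11 CPM, was below that of all peaks, and those of the other members were above it. Median fold enrichments were 4.92, 4.28 and 3.91 at the family, against 5.42, 4.28 and 3.91 over all peaks. The local background under family peaks was higher as well, with medians of 2.11, 2.78 and 3.78 fragments, against 1.46, 2.04 and 2.58 over all peaks. It was computed as the deposited pileup plus 1, divided by the deposited fold enrichment, less 1. Median widths at the family were 306, 290 and 242 bp, against 307, 216 and 202 bp. A −log10 q of at least 10 was reached by 25, 52 and 46 family peaks, or 32.1%, 32.1% and 30.7%, against 33.8%, 27.9% and 24.7% over all peaks. Among members the widths varied without one order: the Seh1cKO median was the lowest of the 3 libraries at Nfib (281, 304.5 and 285 bp) and the highest at Nfic (357, 267 and 274 bp) and Nfix (322, 318 and 211 bp).

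**Figure D2:**
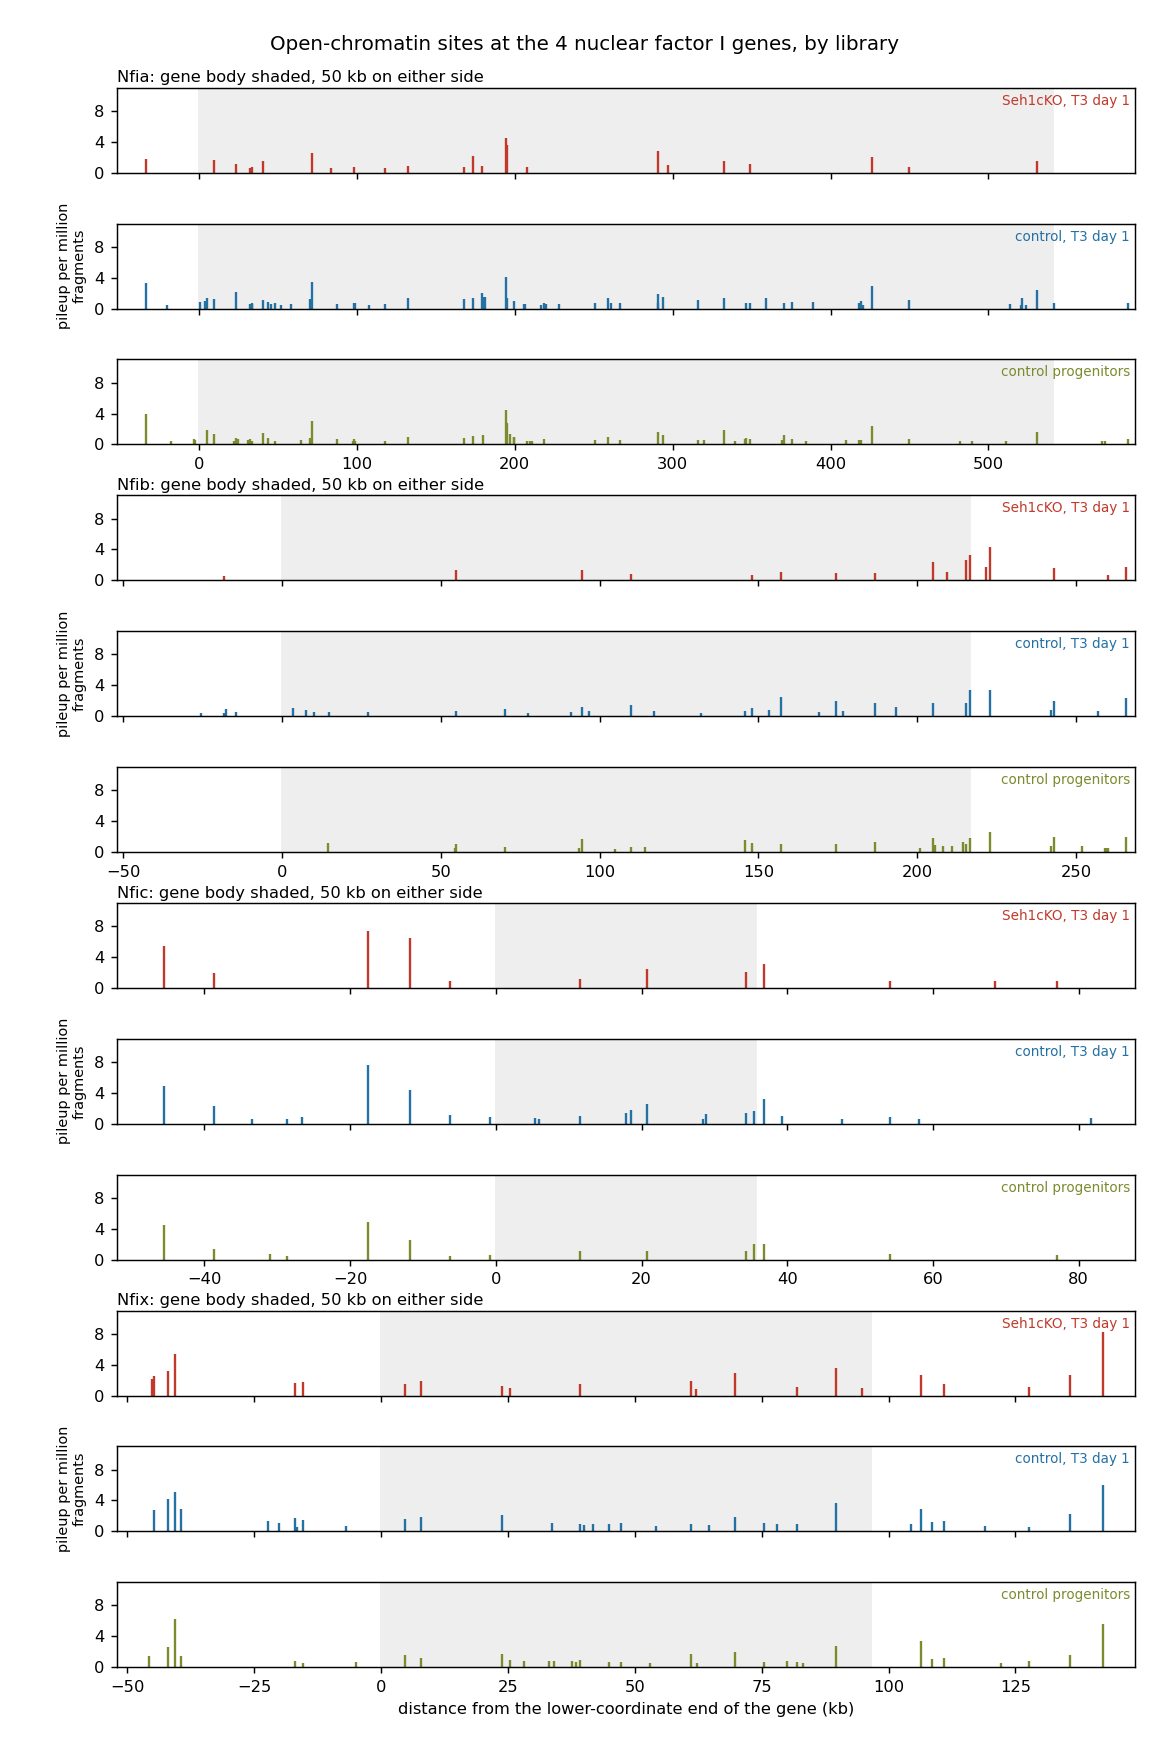
Sites at the 4 loci by library, drawn at their distance in kb from the lower-coordinate end of the gene (gene body shaded), with line height giving the strongest summit pileup in CPM in each site. The tallest Nfia lines of the Seh1cKO library reach 4.52 CPM, and the tallest lines at Nfic and Nfix lie outside the shaded bodies.

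Most family sites were not called in every library. Of 222 sites, 59 were called in all 3 libraries, which is 26.6% against a background of 17.9% of all sites. A further 31 sites, or 14.0%, were called in both control libraries and not in Seh1cKO cells, against 6.81% of all sites. Sites seen in a single library were 8 in Seh1cKO cells (3.60%, background 3.14%), 66 in control cells at day 1 (29.7%, background 36.9%) and 50 in progenitors (22.5%, background 32.1%). The 2 remaining patterns had 4 sites each: Seh1cKO with control day 1 (1.80%, background 1.87%) and Seh1cKO with progenitors (1.80%, background 1.26%). Sites shared by the 2 control libraries alone were most common at Nfia, with 20 of 92, while Nfib had 3 of 51, Nfic 3 of 28 and Nfix 5 of 51. Nfic had 12 of 28 sites in the control day 1 library alone and 1 in progenitors alone, whereas Nfia had 24 of each and Nfix 12 of each.

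**Figure D3:**
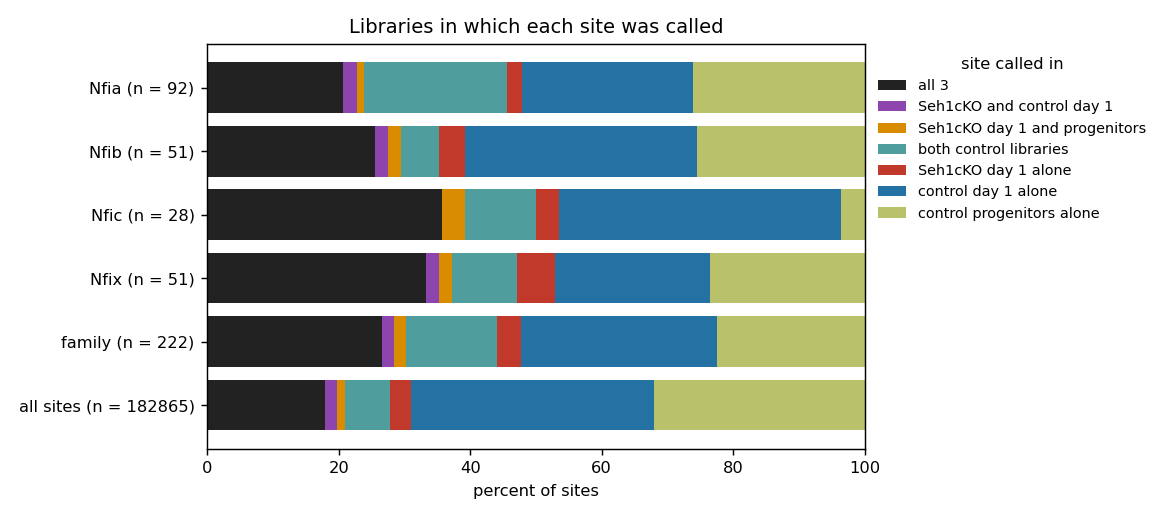
Percent of merged sites by the libraries in which they were called, for each member, the family and all sites of the tables. The share called in all 3 libraries is 26.6% for the family and 17.9% for all sites, and the share called in both control libraries alone is largest at Nfia.

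By position, sites at the ends of other genes were called in all 3 libraries in 11 of 15 cases (73.3%), those in the members' own bodies in 37 of 155 (23.9%), those at the members' own ends in 3 of 7 (42.9%), and those elsewhere in the flanks in 8 of 45 (17.8%). Over all sites of the tables the share was 55.9% within 1000 bp of a protein-coding gene end, 14.8% elsewhere in gene bodies and 11.8% outside both. The classes also differed in strength, with a median highest −log10 q of 15.9 at ends of other genes, 4.76 in the members' bodies, 8.66 at their own ends and 4.45 elsewhere in the flanks. The members' own ends differed from each other. At the higher-coordinate end of Nfib a broad site at chr4:82505949-82507488 had 36 fragments in Seh1cKO cells, 61 in control cells at day 1 and 41 in progenitors, and its neighbour at chr4:82505476-82505867 had 28, 32 and 24. Just beyond the higher-coordinate end of Nfic, a site at chr10:81432834-81433181 had 33, 58 and 46 fragments in the same order. A second site at that end, chr10:81431460-81431802, had no Seh1cKO call, 31 fragments in control cells at day 1 and 47 in progenitors. The site at the lower-coordinate end of Nfic, chr10:81395144-81395595, also lay at an end of Smim24. It had no Seh1cKO call, 16 fragments in control cells at day 1 and 15 in progenitors. Nfia had end peaks in the control day 1 library alone, of 16 fragments at the lower and 12 at the higher end, and neither end of Nfix had a peak in any library. The lower-coordinate end of Nfib had no peak in any library. The strong ends were thus the higher-coordinate ends of Nfib and Nfic, and each had a merged site called in all 3 libraries. In that Nfic site the progenitor peak itself lay more than 1000 bp from the gene end.

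Most Seh1cKO peaks at the family were also control day 1 peaks. Of 78, 65 (83.3%, exact interval 73.2 to 90.8) overlapped a control day 1 peak, against a background of 81.4%, and 25 of 25 at a −log10 q of 10 or more did, against 99.5%. In the other direction 64 of 162 control day 1 peaks (39.5%, 31.9 to 47.5) were present in Seh1cKO cells, against a background of 31.3%. By strength, 41 of 52 at a −log10 q of 10 or more were present there (78.8%, 65.3 to 88.9; background 79.9%), 11 of 33 with 5 to 10 (33.3%, 18.0 to 51.8; background 29.3%) and 12 of 77 under 5 (15.6%, 8.32 to 25.6; background 6.22%). The strong and middle classes were near their background, and only the weakest class had an interval above it. Within that weakest class the family peaks had a median −log10 q of 3.56 against 2.90 over all such peaks.

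Between the control libraries the family's peaks recurred more often than peaks in general. Of the control day 1 peaks 92 of 162 (56.8%, 48.8 to 64.5) were present in progenitors, against a background of 39.7%. The strongest class was near its background, with 45 of 52 (86.5%, 74.2 to 94.4) against 88.4%. The class of 5 to 10 had 23 of 33 (69.7%, 51.3 to 84.4) against 44.8%, and the class under 5 had 24 of 77 (31.2%, 21.1 to 42.7) against 12%. Seen from the progenitors, 95 of 150 peaks (63.3%, 55.1 to 71.0) were present in control cells at day 1, against 43.5%, and 45 of 46 of the strongest were, against 96.5%. A further limit, chosen after seeing the data, kept peaks with a CPM at least 2 times the lowest called in the other library. Of these, 73 of 96 control day 1 peaks (76.0%) were present in progenitors, and 75.3% of all such peaks. Family and background were not matched for −log10 q under this limit, so it does not show at which strength the excess lay. Under the same limit 57 of 64 progenitor peaks (89.1%, 78.8 to 95.5) were present in control cells at day 1, against 93.2% of all such peaks.

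**Figure D4:**
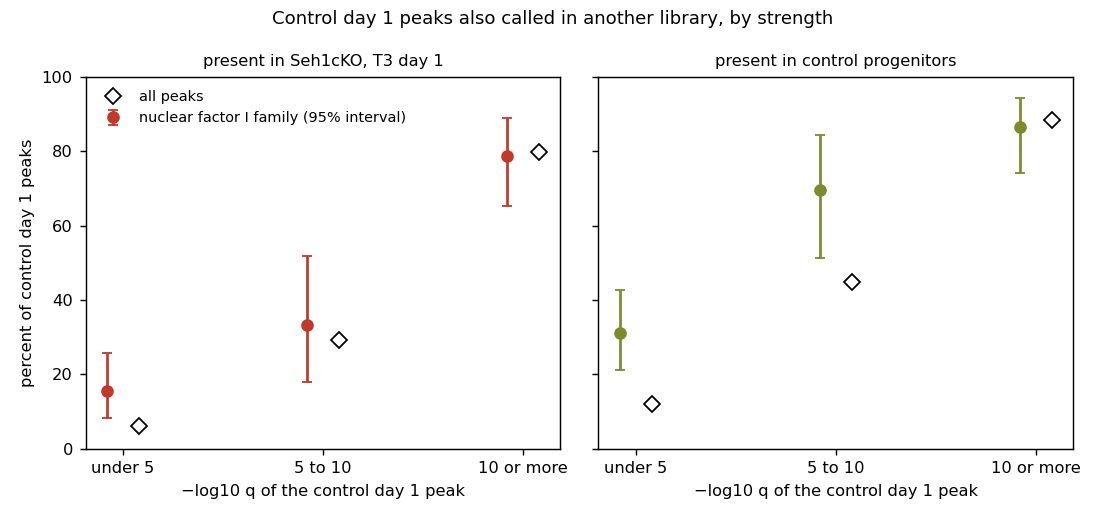
Percent of control day 1 peaks also called in Seh1cKO cells at day 1 (left) and in control progenitors (right), by the −log10 q of the control day 1 peak, for the family (filled points, exact 95% interval) and for all peaks (open diamonds). Family and background are near each other at a −log10 q of 10 or more, at 78.8% and 79.9% for Seh1cKO, and apart in the class under 5.

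Nfia contributed most of the strong control day 1 peaks without a Seh1cKO call. Of its 20 at a −log10 q of 10 or more, 13 were present in Seh1cKO cells (65.0%, 40.8 to 84.6), against the background of 79.9%, which lies inside that interval. Of the corresponding peaks of Nfib 10 of 12, of Nfic 6 of 6 and of Nfix 12 of 14 were present. The 11 absent peaks of the family were thus 7 at Nfia, 2 at Nfib and 2 at Nfix, and all 9 at Nfia and Nfib lay in the gene bodies. Those at chr4:97936912-97937235 and chr4:98099564-98099756 in Nfia had 24 fragments each in control cells at day 1 and no call in either other library, with the nearest Seh1cKO peak 9597 and 8775 bp away. At the depth of the Seh1cKO library 24 fragments correspond to 14.3, where 6 were the fewest called. The Nfix-window peak with the highest pileup among the absent ones, 54 fragments at chr8:84664945-84665507, would correspond to 32.1, and it lay 586 bp from a Seh1cKO peak. Its fold enrichment over local background was 3.81. In the same flank a Seh1cKO peak of 23 fragments, at chr8:84659509-84659669, had a −log10 q of 2.67 and a fold enrichment of 2.54. The level needed for a Seh1cKO call at chr8:84664945-84665507 was not measured, and the part of local background there was not tested. Of control day 1 peaks with at least 2 times the lowest CPM called in Seh1cKO cells, 49 of 66 family peaks (74.2%, 62.0 to 84.2) were present there, and 78.2% of all such peaks.

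Progenitor peaks at the family were compared with the Seh1cKO list in the same way. Of all 150 progenitor peaks 64 (42.7%) were present in Seh1cKO cells, against a background of 33.1%, and 65 of 78 Seh1cKO peaks (83.3%) were present in progenitors, against 78.7%. Among progenitor peaks with a −log10 q of 10 or more, 39 of 46 (84.8%) had a Seh1cKO call, against 89.8%. With at least 2 times the lowest CPM called in Seh1cKO cells, 38 of 51 progenitor peaks (74.5%, 60.4 to 85.7) had one, where 91.0% of all such peaks did, which lies above that interval. The higher local background at the family was given above, and its part in this was not tested. The 7 strong progenitor peaks without a Seh1cKO call were 4 at Nfia, 2 at Nfib and 1 at Nfic. A contrast of Seh1cKO cells with progenitors spans the day of T3 as well as the genotype, which cannot be told apart here.

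The Nfia site with the highest pileup lay in the gene body in all 3 libraries. At chr4:97771900-97772613, in the body of Nfia, the summit pileup was 49 fragments in Seh1cKO cells, 75 in control cells at day 1 and 105 in progenitors, which is 4.52, 4.11 and 4.49 CPM. Relative to the median over all sites called in both libraries, described further on, control day 1 over progenitors was 0.683-fold there (0.501 to 0.928). For Seh1cKO over control day 1 the site stood at 1.21-fold (0.827 to 1.76). The site next to it at chr4:97773255-97773493 had 39, 26 and 64 fragments, or 3.60, 1.42 and 2.73 CPM, lowest in control cells at day 1. A site outside the gene, chr4:97543580-97544667, lies in no annotated gene and had 19, 60 and 91 fragments, or 1.75, 3.29 and 3.89 CPM. It was lowest in Seh1cKO cells, where its width was 553 bp, against 467 bp in control cells at day 1 and 1088 bp in progenitors. A peak of 37 fragments at chr4:97757309-97757721 in control cells at day 1, with 10 in Seh1cKO cells, had no progenitor call, but a progenitor peak began 9 bp further on, so the gap is one between called edges. The site at chr4:97583099-97583636 had no Seh1cKO call, 24 fragments in control cells at day 1 and 44 in progenitors.

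At Nfib several body sites, among them the pair given next, had a higher CPM in control cells at day 1 than in both other libraries. At chr4:82447078-82447750 in the gene body the pileup was 12 fragments in Seh1cKO cells, 46 in control cells at day 1 and 25 in progenitors, or 1.11, 2.52 and 1.07 CPM. The site at chr4:82464160-82464816, where the annotation also has the gene 2310067E19Rik, had 10, 35 and 25 fragments, or 0.922, 1.92 and 1.07 CPM. Relative to the median over all shared sites, control day 1 over progenitors was 1.76-fold (1.06 to 2.99) at the first site. At the second it was 1.34-fold, with an interval that crossed 1 (0.779 to 2.33). Another body site with this order, chr4:82399958-82400277, had 9, 26 and 15 fragments, or 0.830, 1.42 and 0.641 CPM. There control day 1 over progenitors was 1.66-fold, with an interval that also crossed 1 (0.846 to 3.37). A control day 1 peak of 22 fragments and 867 bp at chr4:82483160-82484026 had no call in the other libraries, and the reverse held at chr4:82304270-82304744, with 27 fragments in progenitors alone, though a control day 1 peak lay 57 bp from it. Outside the gene, a site at chr4:82512894-82513622 within Gm11266 had 47, 61 and 60 fragments, or 4.33, 3.34 and 2.56 CPM, so its CPM was highest in Seh1cKO cells. Relative to the median over all shared sites, Seh1cKO was 1.43-fold over control day 1 there (0.955 to 2.12). Over progenitors it was 1.40-fold (0.934 to 2.08), and both intervals crossed 1. The site at chr4:82555551-82556285 lies in no annotated gene and had 19, 42 and 47 fragments, or 1.75, 2.30 and 2.01 CPM.

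At Nfic the body site with the highest pileup in both day 1 libraries was chr10:81416652-81417138, with 27 fragments in Seh1cKO cells, 47 in control cells at day 1 and 25 in progenitors, or 2.49, 2.57 and 1.07 CPM. Both day 1 libraries were thus above the progenitors there. The site at chr10:81414474-81414900 was called in control cells at day 1 alone, with 33 fragments. At Nfix the body site chr8:84793666-84794954 had 38, 66 and 64 fragments, or 3.50, 3.61 and 2.73 CPM. Another, chr8:84765522-84766253, had 20, 18 and 40 fragments, or 1.84, 0.986 and 1.71 CPM, lowest in control cells at day 1 as at chr4:97773255-97773493 in Nfia. In the flank, chr8:84810852-84811363 had 29, 53 and 79 fragments, or 2.67, 2.90 and 3.38 CPM.

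To compare signal at shared sites, the log2 ratio of CPM was set against the median over all sites called in both libraries, since that median was not 0. It was -0.14 for Seh1cKO over control day 1 across 36158 sites, and 0.42 for control day 1 over progenitors across 45187 sites. The family medians were 0.015 over 63 sites and 0.34 over 90 sites, which differ from those by 0.15 and -0.083. By member, Seh1cKO over control day 1 had medians of 0.14 at Nfia, -0.19 at Nfib, -0.052 at Nfic and 0.11 at Nfix. Control day 1 over progenitors had 0.27, 0.28, 0.45 and 0.36 in the same order. The median log2 ratio of widths was -0.23 for Seh1cKO over control day 1, against -0.33 over all sites, and 0.0070 for control day 1 over progenitors, against 0.061. The first value was -0.43 with flanks of 10000 bp, -0.44 in gene bodies and -0.42 without ends of other genes, which are below the median of all sites and not above it.

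**Figure D5:**
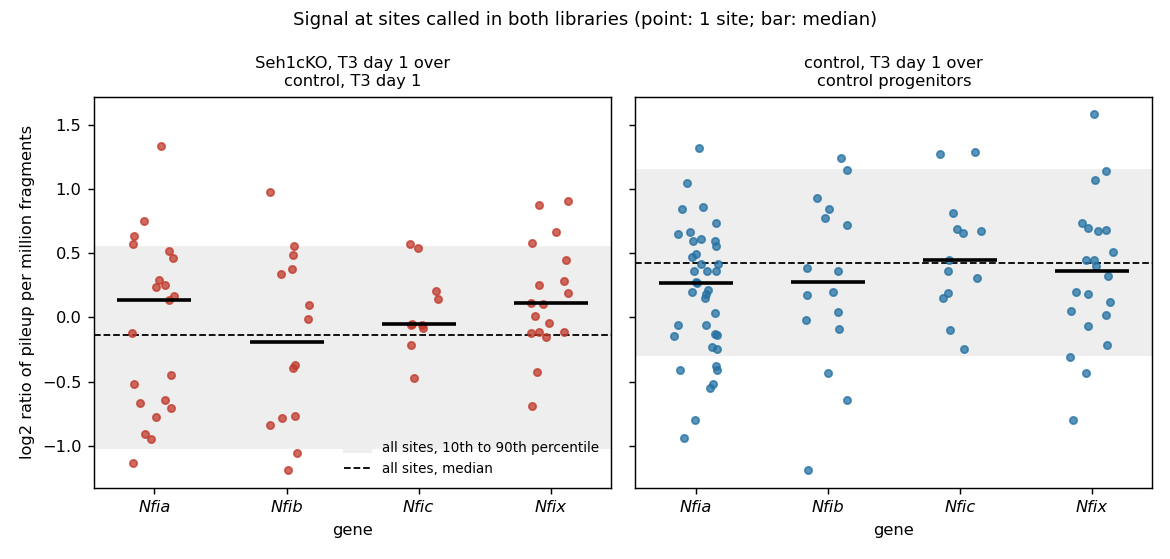
Log2 ratio of summit pileup in CPM at each family site called in both libraries, for Seh1cKO day 1 over control day 1 (left) and control day 1 over control progenitors (right), with bars at the median of each gene, the dashed line at the median over all sites and shading from the 10th to the 90th percentile of all sites. Both panels use the control day 1 library, and the Nfib median on the left, -0.19, is the lowest of the 4.

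A fold of at least 1.5 relative to that median was taken as a difference in level, with no test behind it. Between Seh1cKO and control day 1, 15 of 63 family sites were higher in Seh1cKO cells (23.8%, background 13.9%) and 9 were lower (14.3%, background 18.3%). The higher sites were 6 at Nfia, 3 at Nfib, 2 at Nfic and 4 at Nfix, while the lower ones were 5 at Nfib and 4 at Nfia and none of the 10 shared sites of Nfic or the 18 of Nfix. The furthest higher site was the Nfia site at chr4:97773255-97773493, 2.78-fold relative to the median (exact conditional interval 1.65 to 4.76). Next came chr4:82344705-82345326 in Nfib with 14, 12 and 24 fragments at 2.16-fold (0.928 to 5.12), and chr8:84765522-84766253 in Nfix at 2.06-fold (1.03 to 4.13). The furthest lower sites were chr4:82447078-82447750 in Nfib at 0.484-fold (0.233 to 0.928), chr4:97757309-97757721 in Nfia at 0.501-fold (0.222 to 1.03) and chr4:82464160-82464816 in Nfib at 0.530-fold (0.234 to 1.09). Of these 6 sites, 3 had an interval that crossed 1, and the intervals are not adjusted for choosing the furthest of 63. Most of the other sites past the fold, both higher and lower, also had an interval that crossed 1.

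Between control day 1 and progenitors, 9 of 90 family sites were higher in control cells at day 1 (10.0%, background 14.3%) and 17 were lower (18.9%, background 14.5%). Of the lower sites 9 were at Nfia, 3 at Nfib, 1 at Nfic and 4 at Nfix. The furthest were chr4:82435809-82436094 in Nfib, with no Seh1cKO call, 12 fragments in control cells at day 1 and 35 in progenitors (0.328-fold, 0.155 to 0.647), then the Nfia site at chr4:97773255-97773493 (0.389-fold, 0.236 to 0.622) and chr4:97948328-97948586 in Nfia with 13 and 29 fragments (0.429-fold, 0.205 to 0.851). Higher by the most were chr8:84689094-84689524 in the Nfix flank, with 19, 28 and 12 fragments in the 3 libraries (2.23-fold, 1.10 to 4.82), chr4:97601409-97602036 in Nfia with 12, 39 and 20 (1.87-fold, 1.06 to 3.38), and chr10:81389679-81390186 at an end of Gm48552 in the Nfic window with 9, 21 and 11 (1.83-fold, 0.842 to 4.19). Set directly against progenitors, the Seh1cKO library was furthest below at the site outside Nfia, chr4:97543580-97544667, at 0.373-fold (0.215 to 0.616). In that pairing 8 of 63 family sites were at least 1.5-fold higher in Seh1cKO cells (12.7%, background 11.5%) and 7 were lower (11.1%, background 15.5%). The control day 1 library is shared by both contrasts, so a site low in it alone, such as chr4:97773255-97773493, is low in one contrast and high in the other by construction.

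Genes whose peak numbers followed each member most closely were found by the Euclidean distance between log2(peaks + 1) over the 3 libraries, among genes with at least 10 control day 1 peaks in the same window. For Nfia they were Cdh13, with 24 peaks in Seh1cKO cells, 69 in control cells at day 1 and 66 in progenitors (distance 0.104), then Ptprg and Anks1b. For Nfib they were Hivep3 with 18, 36 and 30 peaks (0.0458), Fam189a1 and Septin9. Nfic was nearest to Veph1 with 11, 24 and 15 peaks (0.129), Creb3l2 and Gnao1. Genes close to Nfix included Apba2 with 24, 36 and 38 peaks (0.0698) and Kcnd3.

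Partners, upstream regulators and targets of NFI in glia were counted over a list of 22 genes by a peak within 1000 bp of an annotated gene end. There were 20 in Seh1cKO cells, 20 in control cells at day 1 and 20 in progenitors, or 90.9% each, where the share over all protein-coding genes was given above. Sox9, which acts with Nfia in astrocyte formation, Sox10, the lineage factor of oligodendrocytes, and Olig2 had an end peak in all 3 libraries. The libraries differed at Pax6, a factor of neural progenitors, which had an end peak of −log10 q 2.06 in Seh1cKO cells, none in control cells at day 1 and one of 4.94 in progenitors, and at Apoe, the lipid carrier made by glia, which had one of 2.62 in control cells at day 1 alone. Rbpj, the nuclear effector of Notch signalling, had an end peak in none of the 3.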

How the data were processed

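ATAC-seq peak tables of 3 libraries (Seh1cKO day 1, control day 1, control progenitors) were used. The tools and build, per the submitters' processing notes, were Bowtie2, SAMtools, MACS2 and mm10. Per the file headers, the authors ran MACS 2.1.2_dev library by library on paired fragments without an input, keeping duplicates, at a q of 0.05, joining gaps up to 50 bp, with peaks of 100 bp or longer and a 10000 bp local background. Kept duplicates can raise a pileup. No source used here says whether reads were shifted for the transposase.

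Each deposited peak has the summit pileup signal in fragments, the −log10 p-value, the −log10 q-value and the fold enrichment ratio over local background, as the file headers name them. The headings of the −log10 columns were damaged, and their identity rests on the order in which MACS writes columns. A Poisson p computed from pileup and fold lay within 0.01 of the −log10 p for 99.91% of Seh1cKO, 99.96% of control day 1 and 99.94% of progenitor peaks. Scores are the authors', and peaks were classed by them within each list.

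Gene positions came from RefSeq on GRCm38.p6, the assembly that mm10 names. The table gives gene ends without exons, so a site in a gene body was not assigned to an exon or intron. Pileups were scaled to 1000000 fragments of the header total, and a site took its strongest peak per library. Shares have exact Clopper-Pearson intervals, counts Poisson intervals and ratios of counts conditional binomial intervals, at 95%, for counting error only, because without molecular identifiers fragments may be copies of one molecule. Sites named were those at an annotated end of a member, up to 2 per member and presence pattern with the highest −log10 q, and the 3 furthest in each direction over the family; other sites named for their level were chosen after their values were seen. Members and lists were chosen with earlier results of these data known. Scripts were tested on simulated data, in Python 3.11.15 with pandas 2.3.3, numpy 2.4.6, scipy 1.17.1 and matplotlib 3.10.9. Alternatives covered flank, strength, list length, overlap, scaling and neighbouring gene ends. One gene among those closest in pattern is not reported here. No genome sequence was used, so peak sequences were not read.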

Additional observations from a re-analysis of the deposited data

How the results depend on the processing

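Of 70 alternative values for 10 results, 50 kept their direction and lay within the 95% interval of the reported value (over sites, for medians), 11 kept it and lay outside, and 9 changed direction, and unless stated the cause was not tested. A share has no direction that could change, so all 9 changes fell among the ratios of counts and the log2 medians. With lists of equal length, which are built to hold equally many peaks, the family's number of peaks was 1.04 times as high for Seh1cKO over control day 1 (reported 0.481) and 0.938 times for control day 1 over progenitors (reported 1.08), the Seh1cKO over control day 1 median log2 pileup was -0.070 (reported 0.015), and shares were 67.9% for Seh1cKO peaks in control day 1, 68.0% for control day 1 peaks in Seh1cKO and 69.3% for control day 1 peaks in progenitors. With fold enrichment in place of pileup the medians were -0.073 for Seh1cKO over control day 1 and 0.086 for control day 1 over progenitors (reported 0.34). Scaling to the median of all shared sites gave 0.15 for Seh1cKO over control day 1 and -0.083 for control day 1 over progenitors, by construction less the median of all sites, and gene bodies gave 0.0996 for Seh1cKO over control day 1. The median log2 width of Seh1cKO over control day 1, reported as -0.23, ran from -0.44 in gene bodies to -0.17 at a −log10 q of at least 10, on both sides of the -0.33 over all sites. That of control day 1 over progenitors, reported as 0.0070, was -0.0061 in gene bodies, -0.12 and -0.060 at a −log10 q of at least 5 and 10, and -0.031 without ends of other genes, an alternative chosen after seeing the data. With both lists held to a −log10 q of at least 10, 92.0% of Seh1cKO peaks were present in control day 1, and progenitor peaks were present in control day 1 at 71.1% and 73.9% for limits of 5 and 10, and at 54.0% with an overlap of at least 50% of the shorter peak. With the pileup limit of 2 times the lowest called in the other library, also chosen after seeing the data, shares were 74.2% for control day 1 peaks in Seh1cKO, 76.0% for control day 1 peaks in progenitors and 89.1% for progenitor peaks in control day 1. Over all such peaks the shares were 78.2%, 75.3% and 93.2% in the same order. For the equal lists and the strength and overlap alternatives, the shares over all peaks are not given. Those family shares therefore have no background here, and the backgrounds of the full lists do not apply to them. With 1 library per group no replicate could be left out. No paired analysis was possible because each group holds 1 library and no result comes from a test. The lowest call in the Seh1cKO library was 0.553 CPM, and the part of depth in missing calls was not tested.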
